A study of Drosophila melanogaster with 52 samples.

Results

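Of 16680 genes counted in early Drosophila embryos, 174 gave RNAs that were abundant in the newly laid egg and nearly gone 2 h later in the wild type. They were chosen from their measured values. Each had at least 20 CPM (counts scaled to a common library sum, mean of 2 libraries) at 0.5 to 1 h and at most 1/16 of that level at the 2.5 to 3 h stage, in the wild types of both the HIRA and the H3.3 experiment. The 8 libraries of those 2 wild types at those 2 stages fixed the list, so the size of the fall in them is part of the choice and is given here only as a description. Of the 5495 genes that reached 20 CPM in both wild types at 0.5 to 1 h, the list took 174. Another 1829 fell at least 2-fold in both wild types but did not reach the limit of 1/16 in both.

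A fly egg is laid with RNAs and proteins that the mother made, and its own genome stays almost silent through the early nuclear divisions. Maternal RNAs are then removed, from egg activation on by products that the mother encoded and later by products of the embryo's own genome. The Smaug protein and its partners, which shorten the poly(A) tails of their targets, act in the earlier phase, and microRNAs made by the embryo act in the later one. HIRA is the chaperone that places the histone variant H3.3 into nucleosomes without DNA replication. dPCIF1 (CG11399) is the fly relative of the mammalian enzyme PCIF1, which modifies the capped end of mRNA.

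The libraries, 26 groups of 2 biological replicates, came from 5 experiments of RNA sequencing. In the mislocalized dPCIF1 mutant embryos, a GFP nanobody joined to Jabba and driven by UASp held GFP-tagged dPCIF1 on lipid droplets, and they were set against w1118 wild-type embryos at 2 stages, 0.5 to 1 h and 1 to 1.5 h. The HIRA maternal mutant embryos came from mothers with null alleles made by CRISPR. The H3.3 maternal mutant embryos came from the surviving adult females that lacked both H3.3A and H3.3B. The labels call both mutants M-Z+, that is, without the maternal but with the zygotic gene function. Each was set against its own wild type at these stages and at 2.5 to 3 h. In the overexpression experiment, the maternal driver matalpha4-GAL-VP16 expressed myc-HIRA alone or myc-HIRA together with myc-dPCIF1, and in the last experiment mothers carried dPCIF1 with the S111A,S115A changes at its own locus. These 2 experiments covered the 0.5 to 1 h and the 1 to 1.5 h stage, each with its own wild type. Each library held 50 hand-selected embryos, and values from whole embryos cannot tell fewer cells of a type from less RNA per cell.

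Library totals ran from 15073545 to 31579940 counts. HIRA RNA averaged 67.6 ± 0.821 CPM in HIRA mutant embryos and 177 ± 12.6 CPM in wild-type embryos at 0.5 to 1 h (SD, n = 2 each). At 2.5 to 3 h it averaged 20.4 ± 1.61 CPM in the libraries labelled HIRA mutant and 10.6 ± 0.674 CPM in the wild type. By the label M-Z+ these embryos have the zygotic gene, so the level at that stage cannot check the label. The paper notes a role of HIRA in forming the diploid zygote, and whether a working zygotic copy was present was not tested. HIRA mutant is used for that stage as the label of the libraries. His3.3A averaged 82.4 CPM in H3.3 mutant embryos and 164 CPM in wild-type embryos at 0.5 to 1 h, and HIRA averaged 2357 CPM in maternal overexpressed HIRA embryos and 162 CPM in their wild type. In the S111A,S115A embryos CG11399 averaged 78.9 CPM, against 387 CPM in their wild type, at 0.5 to 1 h. A list of 10 genes of older embryos summed to between 364 and 376 CPM in the HIRA-experiment wild type, against 3.91 to 4.38 CPM in the HIRA mutant embryos and 98.4 to 101.5 CPM in the H3.3-experiment wild type, at 0.5 to 1 h. The 19 eggshell genes summed to 68.98 to 75.9 CPM in the HIRA-experiment wild type then, against 1.31 to 2.39 CPM in the HIRA mutant embryos. The next highest sums at that stage were 55.2 to 58.4 CPM in S111A,S115A and 48.0 to 50.5 CPM in overexpressed HIRA embryos. The source of the RNA on both lists was not tested. The replicates of 3 groups stood further apart than the rest, those of the HIRA-experiment wild type at 0.5 to 1 h, the HIRA mutant at 1 to 1.5 h and the H3.3-experiment wild type at 2.5 to 3 h. Without each of the 8 choosing libraries in turn, the rule took between 165 and 181 genes. Without the wild type of the HIRA experiment it took 197, and without that of the H3.3 experiment 261.

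All 174 genes code for proteins. Their canonical transcripts, as marked by Ensembl, had a median length of 2068 bases, against 2246 bases for the other 5321 maternal genes. The median 3′ UTRs were 279.5 and 317 bases, and both sets had a median of 4 exons. The X chromosome held 40 of the 174, and 943 (17.7%) of the other maternal genes. On a scale per length, their RNAs had a median of 93.2 TPM at 0.5 to 1 h, against 64.5 TPM for the others. The highest was dhd, an egg-specific thioredoxin that reduces protamines of the sperm, with 2268 TPM. The glycolytic enzyme gene Gapdh2 followed with 2051 TPM, the small heat shock gene Hsp26 with 1672 TPM and the glutathione S-transferase gene GstD1 with 1597 TPM. Together the 174 RNAs made up between 4.22% and 5.51% of each library at 0.5 to 1 h, and 0.121% to 0.181% in both choosing wild types at 2.5 to 3 h.

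Known roles could be given to 85 of the 174 genes, and 89 were left without a role. Of the 85, 13 act in RNA localization, translational control or the germ line, among them bcd, the anterior morphogen, osk and nos, which build the germ plasm and pattern the posterior, and swa and exu, which carry bcd RNA to the anterior of the egg. Another 11 act in egg activation, meiosis or the early divisions, among them png and gnu, which belong to the PAN GU kinase that drives the egg-to-embryo transition, and fs(1)Ya, a nuclear envelope protein of the early embryo. A set of 10 take up yolk or handle lipid, led by yl, the yolk protein receptor of the oocyte, with Jabba and Lsd-2, proteins of the lipid droplet. Carbon metabolism had 14 genes, of which Gapdh2, Tpi, Eno and PyK are enzymes of glycolysis. Redox and detoxification had 10, transporters and channels 11, transcription factors and signalling 8, axis signals and eggshell 6, and small heat shock proteins 2.

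Where 174 of all 5495 maternal genes were members, 6 of the 15 maternal axis and Toll pathway genes that reached 20 CPM were members, as were 3 of 8 lipid storage and yolk genes and 5 of 23 genes of egg activation, meiosis and the PAN GU kinase. Over all lists 4 symbols were not matched, among them closca of the axis list, so the member clos is not in that count. Of 39 genes of maternal RNA repression and decay, 6 were members (aret, nos, orb, BicC, exu and swa). Of 46 cell cycle and replication genes 1, CycJ, was a member, which is near the overall share, and of 19 genes of histones and early chromatin none was.

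The largest falls in the wild types, as the geometric mean of both, were those of Cyp6a19, a cytochrome P450 gene (174-fold), CG4476 (152-fold) and CG6927 (124-fold). BicC, an RNA-binding protein of oogenesis, lost 99.5-fold and dhd 97.6-fold. Just inside the limit were Eno (16.01-fold in the wild type where it fell less), CG4594 (16.04-fold) and Gclc (16.04-fold). Just outside it were fray (15.99-fold), CG2694 (15.98-fold) and CG13397 (15.72-fold).

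In the mutants that were followed to 2.5 to 3 h, the same RNAs also fell, but more was left of 148 of the 174 in HIRA maternal mutant embryos and of all 174 in H3.3 maternal mutant embryos than in their wild types. The fall in these wild types chose the genes, so more left in a mutant is partly built in, and these counts were not tested. The paper reports arrested or delayed nuclear divisions in most HIRA maternal mutant embryos of about this age. Groups of the same age may thus differ in nuclear cycle, and the part of this in what was left was not tested. The median member kept 5.85% of its 0.5 to 1 h level in HIRA maternal mutant embryos, against 2.71% in their wild type. In H3.3 maternal mutant embryos the median member kept 22.2%, against 3.75% in their wild type. The median fall was thus 17.1-fold in HIRA mutant and 36.9-fold in wild-type embryos of that experiment, and 4.50-fold in H3.3 mutant and 26.7-fold in wild-type embryos of the other. In H3.3 mutant embryos 1 of the 174 RNAs, that of Cyp6a19, passed the 1/16 limit, and in HIRA mutant embryos 94 did. Of the 10214 genes with at least 1 CPM in any group, 0.0196% (H3.3) and 1.49% (HIRA) did. More than 10% was left of 42 RNAs in HIRA mutant and of 160 in H3.3 mutant embryos, and more than 25% of 10 and of 71.

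**Figure D1:**
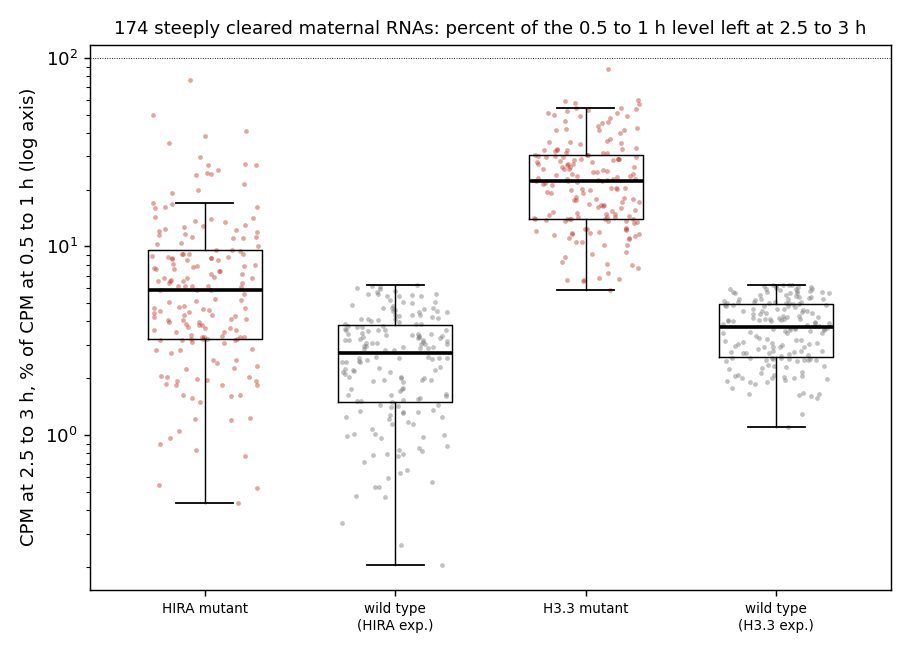
Percent of the 0.5 to 1 h CPM that was left at 2.5 to 3 h (log axis), 1 point per gene for the 174 RNAs, in the HIRA mutant, its wild type, the H3.3 mutant and its wild type. Boxes show the quartiles and the median, and whiskers the most extreme gene within 1.5 box lengths. The wild types lie at or under 6.25% by the choice of genes, while the medians of the mutants are 5.85% (HIRA) and 22.2% (H3.3).

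The fall inside each mutant used none of the choosing libraries, and all 174 members passed the filter on low counts. In HIRA maternal mutant embryos 173 of 174 members were lower at 2.5 to 3 h than at 0.5 to 1 h by edgeR's quasi-likelihood test (adjusted p under 0.05 and more than 2-fold), where 21.1% of all genes tested were. In H3.3 maternal mutant embryos 172 members were lower, where 17.3% of all genes tested were. The exception in both was bcd. It fell by 0.58 on the log2 scale in HIRA mutant embryos (SE 0.05, edgeR adjusted p = 2.1e-06) and by 0.45 in H3.3 mutant embryos (SE 0.05, adjusted p = 1.2e-06), which is short of 2-fold. The other exception in the H3.3 mutant was Eno, which fell by 0.99 (SE 0.05, edgeR adjusted p = 4.8e-11).

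The bcd gene (chromosome arm 3R, 6755842 to 6759466, minus strand, dm6, 4 exons and a 3′ UTR of 834 bases) kept the most RNA in both mutants. In the libraries labelled HIRA mutant, bcd RNA stood at 243 and 249 CPM at 0.5 to 1 h, at 276 and 262 CPM at 1 to 1.5 h and still at 190 and 187 CPM at 2.5 to 3 h. In their wild type it stood at 250 and 244, then 257 and 264, then 6.02 and 5.02 CPM. The H3.3 mutant embryos had 278 and 279, 250 and 270, then 243 and 240 CPM, against 268 and 246, 253 and 258, then 15.3 and 16.5 CPM in their wild type. The 4 groups overlapped or nearly so up to 1.5 h, and at 2.5 to 3 h the mutants kept 76.5% (HIRA) and 86.9% (H3.3) of the early level.

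Of the genes whose products place bcd RNA in the egg, swa kept much of its RNA and exu little. At 2.5 to 3 h swa stood at 180 and 180 CPM in the libraries labelled HIRA mutant and at 10.6 and 8.78 CPM in their wild type, and at 283 and 289 CPM in H3.3 mutant and 31.0 and 36.5 CPM in wild-type embryos. It kept 41.1% of its early level in HIRA mutant and 57.4% in H3.3 mutant embryos. For exu, 14.8 and 15.3 CPM were left in the libraries labelled HIRA mutant and 8.28 and 9.38 CPM in the wild type, with 73.9 and 80.3 CPM in H3.3 mutant and 21.4 and 19.7 CPM in wild-type embryos. That is 1.83% of the early level in HIRA mutant and 7.95% in H3.3 mutant embryos, near the low end of the list. In the fit inside each mutant, exu fell by 5.96 in HIRA and by 3.90 in H3.3 mutant embryos on the log2 scale (edgeR adjusted p = 5.8e-13 and 1.9e-16), where swa fell by 1.47 and 1.04 (adjusted p = 2.3e-09 and 4.0e-11).

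The posterior genes lay between them. The RNA of osk (chromosome arm 3R, 8935126 to 8938395, plus strand, dm6) stood at 171 and 172 CPM in the libraries labelled HIRA mutant at 2.5 to 3 h and at 13.8 and 15.1 CPM in the wild type. The H3.3 mutant embryos held 434 and 426 CPM, against 52.7 and 50.2 CPM in the wild type. The 8 libraries of these 4 groups at 0.5 to 1 h held between 1277 and 1682 CPM of it. For nos, 55.8 and 54.6 CPM were left in the libraries labelled HIRA mutant and 36.5 and 34.1 CPM in the wild type, and 192 and 195 CPM in H3.3 mutant against 37.3 and 37.1 CPM in wild-type embryos. The germ line gene krimp, of the piRNA pathway, kept 29.9% of its early level in HIRA mutant and 51.2% in H3.3 mutant embryos. The 6 genes of a pole cell list, of which 2 were members, summed at 2.5 to 3 h to 3232 to 3257 CPM in the libraries labelled HIRA mutant and 1244 to 1270 CPM in the wild type, and to 4891 to 4927 CPM in H3.3 mutant and 1394 to 1576 CPM in wild-type embryos. The part of pole cell RNA in these levels was not tested.

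**Figure D2:**
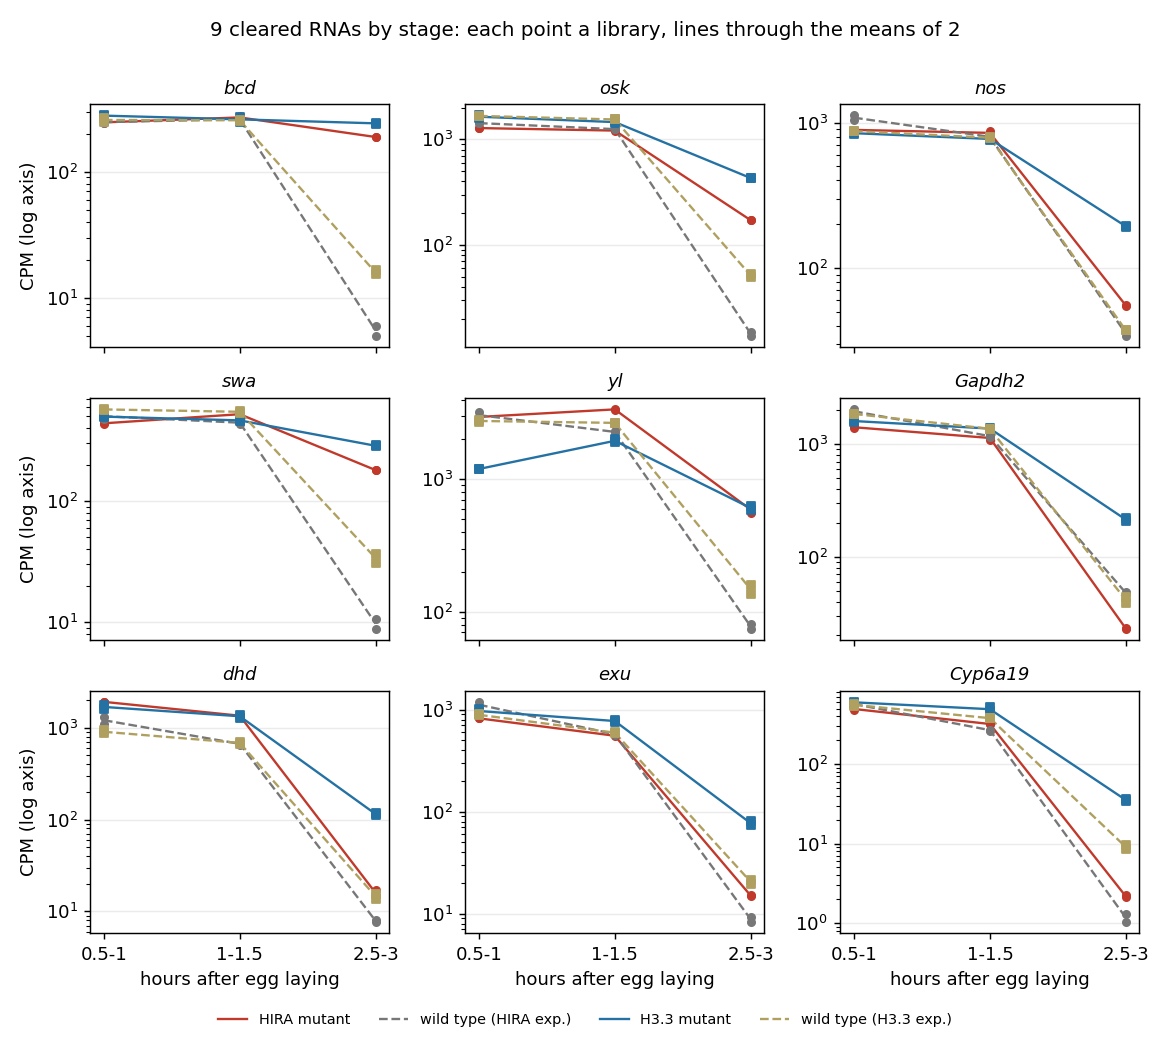
CPM (log axis) of 9 of the RNAs at the 3 stages, each point a library and each line through the means of 2 libraries, for the HIRA mutant, its wild type, the H3.3 mutant and its wild type. The 4 lines lie close together up to 1 to 1.5 h for bcd and osk and part at 2.5 to 3 h, where bcd stands near 190 CPM (HIRA) and 240 CPM (H3.3) in the mutants, while for Gapdh2 the HIRA mutant ends at 22.9 and 23.3 CPM, under its wild type.

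Of the 14 genes of carbon metabolism, 6 were above and 5 below both wild-type libraries in the libraries labelled HIRA mutant at 2.5 to 3 h, and all 14 were above in H3.3 mutant embryos. The 5 were Gapdh2, PyK, Tpi, Mdh2 and Got2, and over all members 126 were above and 25 below in the libraries labelled HIRA mutant. Of all 10214 genes with at least 1 CPM in any group, 3548 were above and 5462 below there. In H3.3 mutant embryos 5376 of these genes were above and 3558 below. Gapdh2 RNA ended at 22.9 and 23.3 CPM in the libraries labelled HIRA mutant, below the 48.7 and 47.1 CPM of their wild type, and at 206 and 222 CPM in H3.3 mutant embryos, above the 44.3 and 38.5 CPM of theirs. Tpi, triose phosphate isomerase, ended at 4.80 and 5.83 CPM in the libraries labelled HIRA mutant, against 9.22 and 9.71 CPM in the wild type, and PyK, pyruvate kinase, at 17.6 and 17.9 CPM, against 19.8 and 23.4 CPM. Tpi of H3.3 mutant embryos ended at 34.5 and 32.7 CPM, against 6.69 and 7.14 CPM in the wild type, and PyK at 144 and 149 CPM, against 24.6 and 22.8 CPM. The mutants lay on opposite sides of their wild types for these 3 genes, which were picked out after their values were seen. Eno, enolase, was above the wild type in both, with 136 and 139 CPM in the libraries labelled HIRA mutant, against 59.9 and 58.6 CPM in the wild type, and 432 and 456 CPM in H3.3 mutant, against 72.3 and 68.9 CPM in wild-type embryos. Among genes of redox and detoxification, GstD1 ended at 4.37 and 5.17 CPM in the libraries labelled HIRA mutant, against 10.6 and 11.3 CPM in the wild type, and at 62.7 and 63.3 CPM in H3.3 mutant, against 15.9 and 16.3 CPM in wild-type embryos.

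The yolk receptor gene yl (chromosome X, 14193214 to 14199958, plus strand, dm6) gave one of the most abundant of these RNAs. In the libraries labelled HIRA mutant it stood at 2948 and 2966 CPM at 0.5 to 1 h, at 3417 and 3328 CPM at 1 to 1.5 h and at 557 and 625 CPM at 2.5 to 3 h, where the wild type held 74.4 and 81.0 CPM. In H3.3 mutant embryos it started low, at 1191 and 1204 CPM against 2717 and 2799 CPM in the wild type, stood at 2004 and 1903 CPM against 2682 and 2653 CPM at 1 to 1.5 h, and ended at 628 and 588 CPM against 159 and 137 CPM. The higher level at 1 to 1.5 h than at 0.5 to 1 h in that mutant amounted to 0.70 on the log2 scale (SE 0.07, edgeR adjusted p = 4.9e-07), which is short of 2-fold. Among the 2 other lipid genes named above, Lsd-2 ended at 156 and 161 CPM in the libraries labelled HIRA mutant, against 60.8 and 54.8 CPM, and at 434 and 431 CPM in H3.3 mutant, against 50.6 and 57.4 CPM in wild-type embryos. Jabba ended at 16.4 and 19.0 CPM, against 13.1 and 14.7 CPM, and at 113 and 118 CPM, against 18.7 and 19.9 CPM.

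Over all 174 RNAs, the level at 2.5 to 3 h in H3.3 mutant embryos was above that of both wild-type libraries in 174 of 174 and the median ratio was 5.96. Of the 10214 genes with at least 1 CPM in any group, 5376 were above and 3558 below in that comparison. In the libraries labelled HIRA mutant the level of the members was above both wild-type libraries in 126 and below both in 25, and the median ratio was 1.90. Of the same 10214 genes, 3548 were above and 5462 below there. Since the wild-type level at that stage chose the genes, neither ratio was tested. Genes chosen in the other wild type alone are free of that. Of 261 genes that met the rule in the wild type of the HIRA experiment, 224 were higher in H3.3 mutant than in wild-type embryos at 2.5 to 3 h by edgeR's test, where 25.7% of all genes tested were, and none was lower (1 at an unadjusted p under 0.05, none by DESeq2). Of 196 tested genes that met it in the wild type of the H3.3 experiment, 84 were higher in the libraries labelled HIRA mutant, where 9.89% of all genes tested were, and 16 were lower, where 27.7% of all genes tested were. These 2 lists share the 174 genes, and the wild types share no library.

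RNA of genes of other stages also differed between mutants and wild types, for older embryos in opposite directions in the HIRA and H3.3 experiments. At 2.5 to 3 h the 10 genes of older embryos summed to 114 to 135 CPM in the libraries labelled HIRA mutant and to 1519 to 1531 CPM in their wild type, and to 2286 to 2332 CPM in H3.3 mutant and 483 to 552 CPM in wild-type embryos, with none of the 10 at 0 in any of these groups. The 12 zygotic genes of the blastoderm summed to 2981 to 3134 CPM in the libraries labelled HIRA mutant, against 3877 to 4000 CPM in the wild type, and to 3749 to 3780 CPM in H3.3 mutant, against 4152 to 4241 CPM in wild-type embryos. A list of 19 eggshell genes summed to 50.03 to 54.1 CPM in H3.3 mutant and 3.91 to 4.52 CPM in wild-type embryos at that stage. Their part in what was left of the maternal RNAs was not tested.

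The RNAs that were left most and least were largely alike in the 2 mutants. Across the 174 genes, the percent left in HIRA and in H3.3 mutant embryos had a Pearson correlation of 0.814 on the log scale and a Spearman correlation of 0.793, and in the 2 choosing wild types the values were 0.767 and 0.724. The groups share no library, but genes are not independent replicates and these values are descriptions. In HIRA mutant embryos the least cleared were bcd, rost (49.6% left), swa, Acox57D-d, an acyl-CoA oxidase of lipid breakdown (38.5%), and galectin (35.3%). They were, in H3.3 mutant embryos, bcd, Eno (59.6%), CG10237 (58.8%), swa and Acox57D-d (57.3%). Cyp6a19 was the most cleared in both, with 0.438% left in HIRA and 5.89% in H3.3 mutant embryos, and dhd was near it with 0.828% and 6.81%.

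By role, the median percent left at 2.5 to 3 h in HIRA mutant embryos was 9.57% for the 8 transcription factors and signalling genes, 8.87% for the 13 genes of RNA localization and the germ line, 7.64% for the 6 of axis signals and eggshell and 7.42% for the 11 of egg activation and meiosis. It was 5.16% for the 14 of carbon metabolism, 4.90% for the 10 of redox and detoxification and 4.40% for the 10 of yolk uptake and lipid. In H3.3 mutant embryos the medians ran from 16.5% for egg activation and meiosis to 31.5% for transcription factors and signalling, with 26.6% for axis signals and eggshell and 26.7% for carbon metabolism. Over all members the medians were 5.85% and 22.2%, and within every role of 6 or more genes the range was wider than the differences between the medians. For instance, the 13 genes of RNA localization ran from 1.83% to 76.5% in HIRA mutant embryos.

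**Figure D3:**
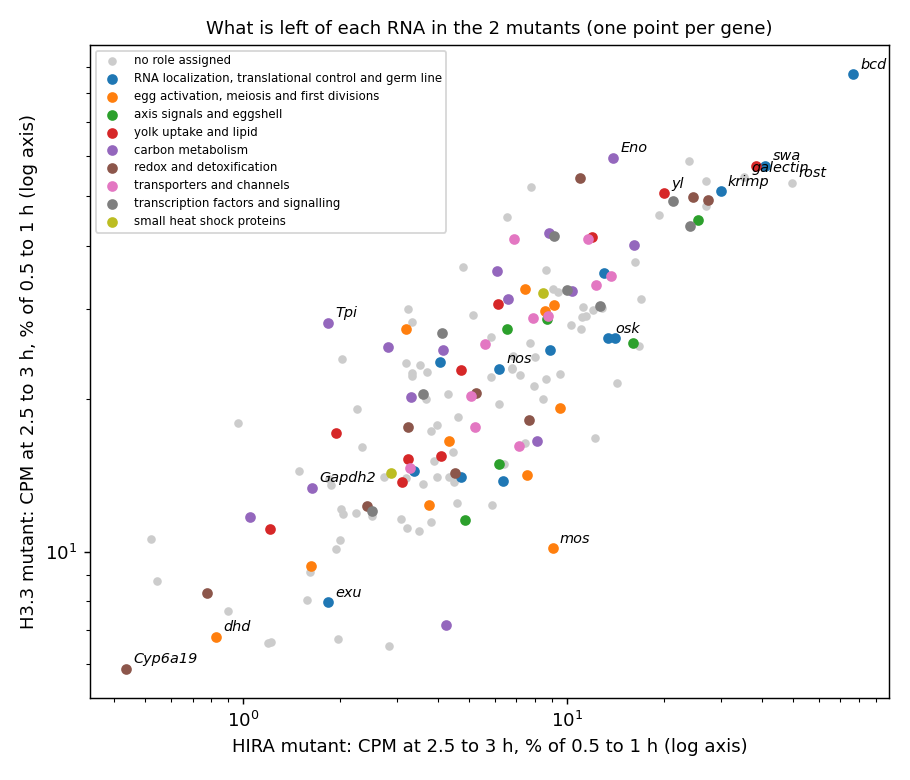
Percent of the 0.5 to 1 h CPM left at 2.5 to 3 h in the HIRA mutant (horizontal, log axis) and the H3.3 mutant (vertical, log axis), 1 point per gene, coloured by role. The genes run from Cyp6a19 (0.438% and 5.89%) at lower left to bcd (76.5% and 86.9%) at upper right, with a Spearman correlation of 0.793.

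At 1 to 1.5 h more than 50% of the early level was still present for all but 7 members in HIRA mutant and for all members in H3.3 mutant embryos. The median member kept 89.6% of its early level in HIRA mutant and 72.4% in wild-type embryos of that experiment, and 89.5% in H3.3 mutant and 87.2% in wild-type embryos of the other. In HIRA mutant embryos 7 members were lower at 1 to 1.5 h than at 0.5 to 1 h by edgeR's test, where 2.86% of all genes tested were. They were del, Mitf, CG31075, CG17698, CG15047, stai and CG16711. In H3.3 mutant embryos none of the 174 was called lower, where 0.432% of all genes tested were, although 104 had an unadjusted p under 0.05 in that direction, and DESeq2 called none. A few members with a low start in the H3.3 mutant were instead nearer the wild type at 1 to 1.5 h. fs(1)Ya, for one, stood at 119 and 119 CPM at 0.5 to 1 h, against 324 and 313 CPM in the wild type, and at 210 and 213 CPM at 1 to 1.5 h, against 258 and 266 CPM, a change of 0.82 inside the mutant on the log2 scale (SE 0.05). The values of yl, Tpi and BicC moved by 0.70, 0.71 and 0.74 in the same direction, all short of 2-fold. The 19 eggshell genes summed to 310 to 360 CPM in that mutant at 1 to 1.5 h and to 0.241 to 0.302 CPM in the wild type, and to 20.5 to 20.7 and 5.30 to 5.82 CPM at 0.5 to 1 h, and their part in these values was not tested.

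Against the wild type at 1 to 1.5 h, 1 member, dhd, was higher in HIRA mutant embryos (1.96% of all genes tested were) and 4 were lower (21.2% of all genes tested were). The RNA of dhd stood at 1395 and 1312 CPM in HIRA mutant and at 648 and 688 CPM in wild-type embryos, a log2 difference of 1.01 (SE 0.08, edgeR adjusted p = 2.3e-06). It was already 1915 and 1918 CPM in HIRA mutant and 1321 and 1095 CPM in wild-type embryos at 0.5 to 1 h. The 4 lower ones were del, CG4842, CG17698 and Mitf. For del, a gene of piRNA cluster transcription, the replicates were far apart, with 44.3 and 94.8 CPM in HIRA mutant and 233 and 220 CPM in wild-type embryos at 1 to 1.5 h, and with 66.9 and 172 CPM in the wild type at 0.5 to 1 h. Without HIRA mutant replicate 1 at that stage 2 members were lower, and without replicate 2 it was 5. In H3.3 mutant embryos at 1 to 1.5 h, CG17292 was higher, with 89.8 and 88.6 CPM against 43.3 and 41.8 CPM in the wild type (12.3% of all genes tested were), and CG4238 was lower, with 33.9 and 29.8 CPM against 126 and 129 CPM (1.87% of all genes tested were). The 10 genes of older embryos summed at 1 to 1.5 h to 2.08 to 3.22 CPM in HIRA mutant and 321 to 324 CPM in wild-type embryos, and the 12 zygotic genes of the blastoderm to 812 to 863 CPM and 1288 to 1319 CPM, and their part in these differences was not tested.

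The 3 other experiments had no part in the choice of genes. In mislocalized dPCIF1 mutant embryos most of the 174 RNAs were lower already at 1 to 1.5 h. Their summed share of the library was 1.97% and 1.95% in the mutant at 1 to 1.5 h, against 4.53% and 4.53% in the wild type, where at 0.5 to 1 h it had been 4.23% and 4.22% in the mutant and 5.33% and 5.32% in the wild type. The median member kept 43.1% of its 0.5 to 1 h level in the mutant and 88.0% in the wild type, and 121 members in the mutant, against 3 in the wild type, kept at most 50%.

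By edgeR's test 123 members were lower at 1 to 1.5 h than at 0.5 to 1 h inside the mutant, where 11.6% of all genes tested were, and 4 inside the wild type, where 0.667% of all genes tested were. Those 4 were CG31075, CG15047, dhd and CG9547. The difference between these 2 changes was itself called for 80 members, all with a larger fall in the mutant, where 10.7% of all genes tested were. Mutant against wild type, 119 members were lower at 1 to 1.5 h (14.5% of all genes tested), with a median of -1.28 on the log2 scale over the 174. At 0.5 to 1 h 32 were lower (4.34% of all genes tested), with a median of -0.31. Without normalization factors, 11.5% of members were lower at 0.5 to 1 h in place of 18.4%.

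In this mutant dhd stood at 133 and 133 CPM at 1 to 1.5 h, against 1085 and 1033 CPM in the wild type, a log2 difference of -3.04 (SE 0.04, edgeR adjusted p = 3.9e-19). At 0.5 to 1 h it was already at 647 and 600 CPM, against 2163 and 2175 CPM. Cyp6a19 stood at 45.6 and 48.8 CPM at 1 to 1.5 h, against 381 and 396 CPM, and its fall inside the mutant exceeded that in the wild type by 2.19 on the log2 scale (SE 0.05, edgeR adjusted p = 5.9e-15). Both RNAs were therefore lower in every mutant library than in every wild-type one, at both stages.

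Among the genes of egg activation and meiosis, 9 of 11 were lower in this mutant at 1 to 1.5 h, where 14.5% of all genes tested were. Against the wild type, the log2 difference was -2.62 for alphaTub67C, the maternal alpha-tubulin, -1.90 for png and -1.70 for mtrm, an inhibitor of Polo kinase in meiosis. The RNA of gnu, at 126 and 128 CPM against 227 and 242 CPM in the wild type, missed the 2-fold mark at -0.92, although it was above the wild type at 0.5 to 1 h with 264 and 277 CPM against 173 and 171 CPM. Of the 14 genes of carbon metabolism 11 were lower, among them Gapdh2 with 415 and 423 CPM against 1619 and 1589 CPM (log2 difference -1.98, SE 0.03, edgeR adjusted p = 3.1e-18). So were 7 of 10 genes of redox and detoxification, 8 of 11 transporters and channels and 7 of 10 genes of yolk uptake and lipid. Jabba, from which the trap in this mutant is built, stood at 336 and 330 CPM against 625 and 612 CPM in the wild type, a log2 difference of -0.93 that missed the 2-fold mark.

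The genes of RNA localization were split, with 6 of 13 lower, where 14.5% of all genes tested were. The RNA of exu stood at 145 and 144 CPM in the mutant at 1 to 1.5 h, against 709 and 735 CPM in the wild type (log2 difference -2.36, SE 0.03, edgeR adjusted p = 2.8e-19), and nos at 331.0 and 331.8 CPM, against 822 and 828 CPM. osk, at 815 and 807 CPM against 1432 and 1491 CPM, missed the 2-fold mark at -0.89 (SE 0.03, adjusted p = 1.8e-14). By contrast bcd stood at 276 and 268 CPM, against 243 and 249 CPM, and swa at 484 and 473 CPM, against 500 and 509 CPM. bcd kept 90.2% of its early level in this mutant, the most of all 174, while Cyp6a19 kept 13.8%, the least.

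Genes on the wider lists that were not members were read against the 14.5% of all genes tested that were lower. Of 33 other genes of maternal RNA repression and decay 0 were called in either direction at 1 to 1.5 h by edgeR's test or by DESeq2, although 14 were higher and 13 lower at an unadjusted p under 0.05, and their median difference was 0.04 on the log2 scale. Of 46 cell cycle and replication genes 2 were lower and 1 was higher, and of 20 other genes of egg activation and meiosis 3 were lower and 1 was higher, shares of lower genes near or under that of all genes. For the 1829 genes that fell at least 2-fold in both choosing wild types but were not members, the median gene kept 70.8% of its early level in the mutant and 99.8% in the wild type. The 12 zygotic genes of the blastoderm summed to 2444 to 2534 CPM in the mutant at 1 to 1.5 h, against 513 to 530 CPM in the wild type. The 10 genes of older embryos summed to 59.6 to 60.2 CPM, against 90.3 to 99.3 CPM. At 0.5 to 1 h these sums were 662 to 684 CPM in the mutant and 363 to 367 CPM in the wild type for the blastoderm, and 92.6 to 94.6 CPM and 3.81 to 3.84 CPM for older embryos. Their part in the loss of the maternal RNAs was not tested.

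**Figure D4:**
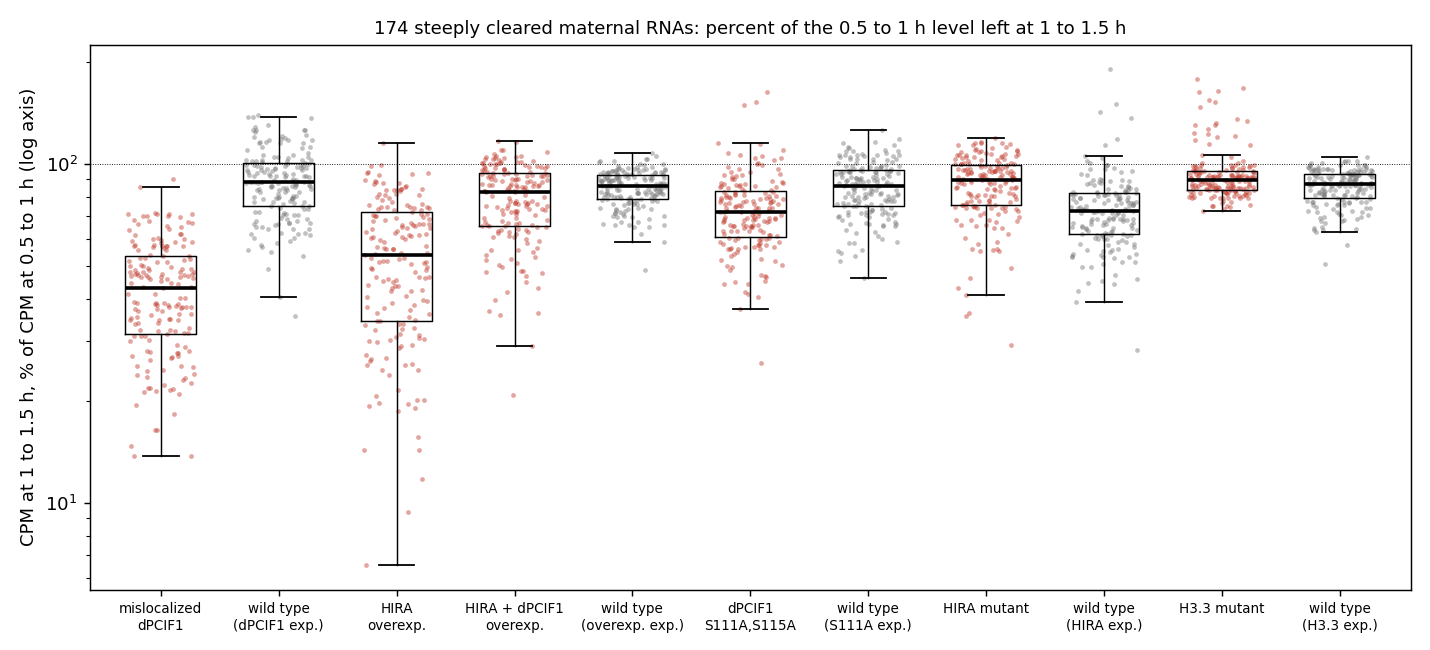
Percent of the 0.5 to 1 h CPM left at 1 to 1.5 h (log axis), 1 point per gene for the 174 RNAs, in each mutant or overexpression group and its own wild type. Boxes show the quartiles and the median, and whiskers the most extreme gene within 1.5 box lengths. The lowest medians are those of mislocalized dPCIF1 (43.1%) and overexpressed HIRA (53.9%), while the 5 wild types lie between 72.4% and 88.0%.

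In maternal overexpressed HIRA embryos many of the 174 RNAs were also lower at 1 to 1.5 h. The 174 RNAs made up 2.57% and 2.57% of the library at 1 to 1.5 h, against 4.54% and 4.61% in the wild type. In embryos that overexpressed HIRA and dPCIF1 together the share was 4.16% and 4.23%. The median member kept 53.9% of its early level with HIRA alone, 82.8% with both and 86.1% in the wild type. At 0.5 to 1 h no member was called against the wild type in either, where 5.19% (HIRA) and 5.94% (both) of all genes tested were lower. At an unadjusted p under 0.05, 137 members were lower and 4 higher with HIRA alone and 65 lower and 49 higher with both, and DESeq2 called none in either.

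At 1 to 1.5 h edgeR's test called 78 members lower with HIRA alone than in the wild type (6.96% of all genes tested) and 5 with both (7.02%). Among them were CG31075, CG14931, CG11655 and mus301, a DNA repair helicase. Without replicate 1 of the co-overexpressing embryos at that stage 3 were lower, and without wild-type replicate 1 it was 6. Between the stages, 84 members were lower at 1 to 1.5 h than at 0.5 to 1 h with HIRA alone (7.43% of all genes tested), 15 with both (1.75%) and 1, CG31075, in the wild type (1.91%). The change between the stages differed from that of the wild type for 61 members with HIRA alone (6.94% of all genes tested) and for 2, CG31075 and CG15047, with both (4.65%), in each case with the larger fall under overexpression. The 2 kinds of overexpressing embryos share their wild type and were not tested against each other.

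The lowest log2 difference with HIRA alone was that of CG31075. It stood at 3.97 and 4.52 CPM with HIRA alone and at 15.8 and 18.4 CPM with both at 1 to 1.5 h, against 55.6 and 55.9 CPM in the wild type, log2 differences of -3.82 and -1.69 (SE 0.09 and 0.07, edgeR adjusted p = 2.1e-17 and 3.0e-13). At 0.5 to 1 h it stood at 65.3 and 64.2 CPM with HIRA alone and at 81.7 and 83.0 CPM with both, against 118.9 and 110.9 CPM in the wild type. It was also the member that kept the least by 1 to 1.5 h in each of the 5 wild types, with between 28.2% and 50.6% of its early level. Cyp6a19 stood at 56.7 and 56.6 CPM with HIRA alone, at 188 and 191 CPM with both and at 376 and 386 CPM in the wild type. For both genes the co-overexpressing embryos lay between the others, with no overlap of libraries.

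By role, 8 of 11 genes of egg activation and meiosis were lower with HIRA alone at 1 to 1.5 h, where 6.96% of all genes tested were. So were 7 of 14 of carbon metabolism, 5 of 10 of redox and detoxification, 4 of 10 of yolk uptake and lipid and 4 of 13 of RNA localization. Of transporters and channels 3 of 11 were lower, and 1 of 8 transcription factors and signalling genes. It was 1 of 6 for axis signals and eggshell and 0 of 2 for small heat shock genes (-0.741 and -0.892 on the log2 scale). The counts of 1 and 0 are of few genes and were not tested against the share of all genes. dhd stood at 278 and 281 CPM, against 1195 and 1318 CPM in the wild type (log2 difference -2.26, SE 0.04, edgeR adjusted p = 3.9e-18), and Gapdh2 at 510 and 509 CPM, against 1426 and 1472 CPM (-1.60, SE 0.03, adjusted p = 3.9e-18). exu was lower, with 252 and 263 CPM against 775 and 819 CPM. The RNAs of bcd (252 and 250 CPM against 230 and 229 CPM) and swa (436 and 439 CPM against 469 and 472 CPM) were again near the wild type, and bcd kept the most of its early level of all 174, 115.3%. In this experiment the 12 zygotic genes of the blastoderm summed to 1554 to 1557 CPM with HIRA alone and to 847 to 875 CPM with both, against 504 to 518 CPM in the wild type, and the eggshell genes to 6.78 to 7.10 CPM and 103 to 107 CPM, against 0.178 to 0.441 CPM. The genes of older embryos summed to 203 to 210 CPM with HIRA alone and 10.8 to 10.9 CPM with both, against 45.5 to 46.6 CPM in the wild type. Their part in the loss was not tested.

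Of the 119 members lower in mislocalized dPCIF1 mutant embryos at 1 to 1.5 h, 76 (63.9%) were also among the 78 lower in overexpressed HIRA embryos, of which they were 97.4%. Over all 8479 genes tested in both experiments, 499 were lower in both, 40.5% of those lower in the dPCIF1 mutant and 81.0% of those lower with overexpressed HIRA. The 2 comparisons share no library, and the members' overlap was not tested against that of all genes. For the differences in change between stages, 49 members were in both, 61.2% of the 80 in the dPCIF1 mutant and 80.3% of the 61 in overexpressed HIRA embryos, against 21.3% and 30.6% over all genes tested.

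**Figure D5:**
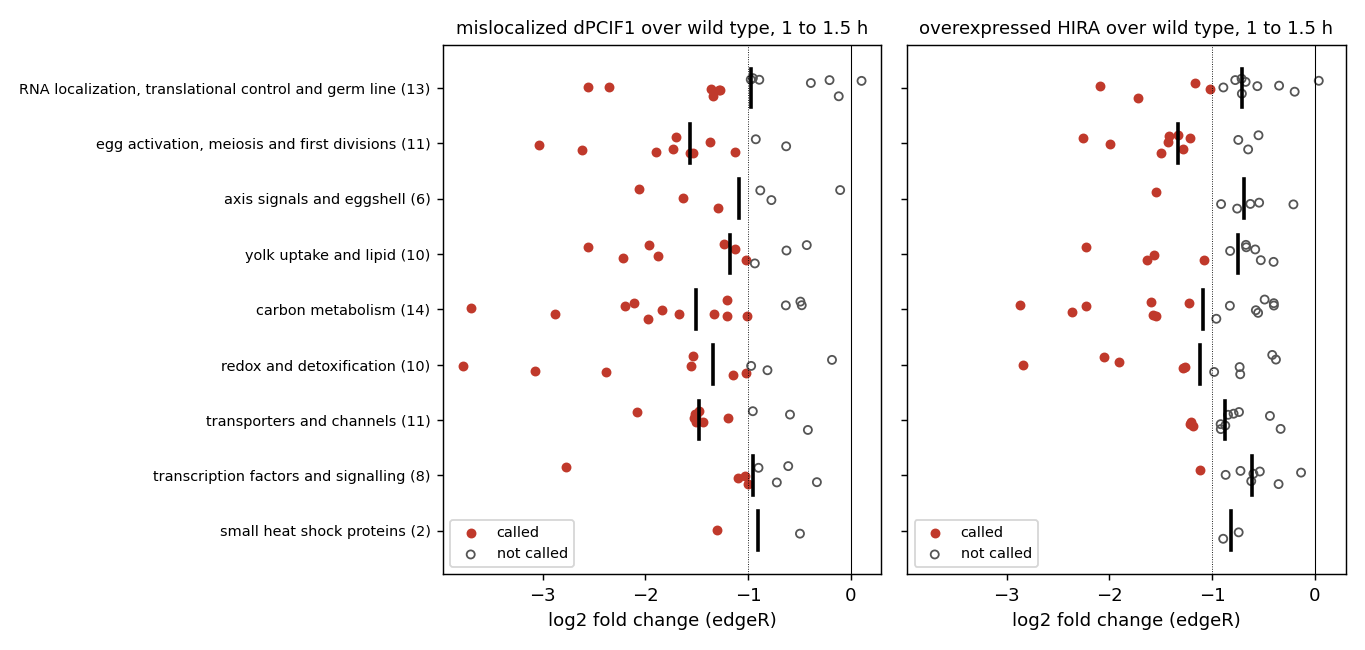
Log2 fold change at 1 to 1.5 h for the 85 members with a role, in mislocalized dPCIF1 mutant over wild-type embryos (left) and overexpressed HIRA over wild-type embryos (right). Each point is a gene, filled where called by edgeR, thick bars are the medians of a role and the dotted line marks 2-fold lower, which 9 and 8 of the 11 genes of egg activation passed. Of all genes tested, 14.5% (left) and 6.96% (right) were called lower.

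In S111A,S115A embryos few members were called. The 174 RNAs made up 3.66% and 3.58% of the library at 1 to 1.5 h, against 4.40% and 4.51% in the wild type, and the median member kept 72.1% of its early level in the mutant and 86.2% in the wild type. At 1 to 1.5 h 8 members were lower than in the wild type by edgeR's test, a share not above the 5.34% of all genes tested. They were CG31262, pinta, Pxt, BicC, dhd, GstE6, CG42514 and CG17698. All 8 were also among the 119 of the mislocalized dPCIF1 mutant, where over all genes tested in both it was 42.4%. As 119 of the 174 members were lower in that mutant, most members would overlap in this way, and the overlap was not tested. Between the stages 14 members were lower at 1 to 1.5 h in the mutant (2.14% of all genes tested) and 1, CG31075, in the wild type (1.04%). The difference between the changes was called for none (2.96% of all genes tested were), although 123 had an unadjusted p under 0.05 with the larger fall in the mutant and 4 with the smaller, and DESeq2 called none.

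At 0.5 to 1 h 3 members were lower in S111A,S115A embryos (2.08% of all genes tested) and 1 was higher (4.37%). Neither share was above that of all genes. Pxt, a peroxidase that acts in follicle development, stood at 459 and 440 CPM in the mutant, against 1222 and 1235 CPM in the wild type (log2 difference -1.498, SE 0.04, edgeR adjusted p = 2.1e-11), and at 447 and 451 CPM, against 1206 and 1200 CPM, at 1 to 1.5 h. CG31262 stood at 6.25 and 6.17 CPM, against 28.4 and 29.1 CPM, and pinta at 5.86 and 7.71 CPM, against 18.4 and 18.6 CPM. These 3 were low at both stages, whereas dhd stood at 764 and 793 CPM, against 1236 and 1237 CPM, at 0.5 to 1 h and at 391 and 367 CPM, against 887 and 965 CPM, at 1 to 1.5 h. The member that was higher was CG2789, with 93.8 and 99.5 CPM against 45.5 and 45.5 CPM. The 12 zygotic genes of the blastoderm summed to 914 to 1063 CPM in the mutant and 616 to 617 CPM in the wild type at 1 to 1.5 h, and the genes of older embryos to 120 to 167 CPM and 39.6 to 45.2 CPM, and their part in these values was not tested.

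At 1 to 1.5 h bcd and swa kept more of their early level than any other member in mislocalized dPCIF1 mutant embryos (90.2% and 85.2%) and in overexpressed HIRA embryos (115.3% and 99.1%). Cyp6a19 kept 13.8% and 11.7% there. The percent of each member left at 1 to 1.5 h in the wild type of the dPCIF1 experiment, which took no part in the choice, had a Pearson correlation on the log scale of 0.596 and a Spearman correlation of 0.596 across the 174 genes with the percent left at 2.5 to 3 h in HIRA mutant embryos. With that left in H3.3 mutant embryos the values were 0.580 and 0.555. These correlations are across genes, which are not independent replicates.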

How the data were processed

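Embryos were collected by the authors in 2 biological replicates per group, and rRNA-depleted, strand-specific libraries were sequenced (the labels call the molecule polyA RNA). Per the submitters' notes and methods, the authors used Trimmomatic 0.39, STAR 2.7.10a on dm6 and RSEM 1.3.1, and tested with DESeq2 1.40.2. The deposited expected counts are RSEM estimates per gene, not normalized, and 94.0% to 97.2% of them are whole. The TPM values, deposited by the authors beside them, are scaled by transcript length and library, and were used only to compare levels between genes.

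CPM is each expected count per 1e6 of the library sum (15073545 to 31579940, median 23610130), so that 3 counts equal 0.095 to 0.199 CPM. Intervals on such values would cover counting error only. For tests, expected counts were rounded and each experiment was fitted with edgeR 4.0.16 (R 4.3.3) by its quasi-likelihood test, with TMM factors and filterByExpr (minimum count 10, minimum total 15), which left 8700 to 10644 genes. P-values were adjusted by Benjamini-Hochberg over all genes tested, and a gene was called at an adjusted p under 0.05 and a fold change over 2. Differences in change between stages were interaction terms. DESeq2 1.42.0 was an alternative, as were other normalizations, filters, limits of the list, a replicate block and leaving out each replicate. The tests were tested on simulated data. Gene positions came from RefSeq on dm6, which matched all 174 members. Strands and the lengths and exons of the canonical transcripts came from the Ensembl annotation. Percent left is the mean CPM at the later stage over that at 0.5 to 1 h.

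The 174 members, their roles and the gene lists were chosen with earlier results of these data known. Named are the 10 members highest in CPM at 0.5 to 1 h or with the largest falls where described, members of the gene lists, up to 3 called members per direction and comparison with the largest change in every library pair, the 5 smallest falls in each mutant and the 3 genes on either side of the limit. Tpi, PyK, BicC, krimp and members of counts of 14 or fewer were otherwise named after their values were seen. Beyond their labels as biological replicates, p-values measure only the spread between these libraries. No sequences were used here. Results of 1 member are counted but not reported here by name.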

Additional observations from a re-analysis of the deposited data

Results flagged for a closer look

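The change between 0.5 to 1 h and 1 to 1.5 h differed from that of the wild type, by edgeR's interaction term, for 80 members in mislocalized dPCIF1 mutant embryos, all with the larger fall in the mutant. Among the largest differences were those of Cyp6a19 (-2.19 on the log2 scale) and CG9926 (-2.04). In overexpressed HIRA embryos it differed for 61 members, led by CG31075 (-2.98), CG15047 (-2.71) and Cyp6a19 (-2.54). In embryos that overexpressed HIRA and dPCIF1 it differed for 2 members, CG31075 (-1.23) and CG15047 (-1.09). With 2 libraries per group, no test for a single library far from the others was possible.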

How the results depend on the processing

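The limit set the size of the list, with 395 genes at 1/8 and 62 at 1/32, and leaving out 1 choosing library gave 165 to 181. Of the calls of named genes under all alternatives, 772 of 779 kept direction and side of the threshold, 7 no longer passed it and 0 reversed. Of the percentages of members called, in the direction with more calls, 344 of 372 stayed within 1.5 times the reported value and 28 did not, and 14 of 372 medians moved. With the genes of the 1/8 limit, 11.1% were lower in mislocalized dPCIF1 mutant than in wild-type embryos at 0.5 to 1 h, as were 11.5% of the 174 without normalization factors, and 1.77% were lower in H3.3 mutant embryos at 1 to 1.5 h, 1.27% with overexpressed HIRA and 1.01% with HIRA and dPCIF1 at 0.5 to 1 h. Between the stages the 1/8 limit gave 1.52% in the wild type of the dPCIF1 experiment, 5.57% with HIRA and dPCIF1 overexpressed (0.506% for the interaction), and 0.253% in the wild types of the overexpression and of the S111A,S115A experiment. At the 1/32 limit these were 4.84%, 16.1%, 3.23%, and 1.61% in both wild types, with 17.7% in S111A,S115A embryos, 0% lower in H3.3 mutant embryos at 1 to 1.5 h and 0% in S111A,S115A embryos at 0.5 to 1 h. Without a filter on low counts 1.15% were lower between stages in the wild type of the S111A,S115A experiment. These percentages rest on few genes.

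Leaving out 1 library gave 1.15% to 2.87% lower in HIRA mutant embryos at 1 to 1.5 h, 1.72% to 3.45% with HIRA and dPCIF1 overexpressed (0.575% to 1.15% for the interaction), 0% to 0.575% between stages in the wild type of that experiment (0 without replicate 1 at 0.5 to 1 h), 0.575% to 1.15% in the wild type of the S111A,S115A experiment and 0% to 0.575% for its interaction. Scaling without factors shifted the median of all genes by 0.31 on the log2 scale between H3.3 mutant and wild-type embryos at 2.5 to 3 h. The members' median ratio of 5.96 there, like every percent left, is of CPM and so is itself without factors.

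The replicate numbers did not pair the libraries by the rule that every pair correlate over 0.1 (median correlations of same-numbered deviations of -0.0601 to 0.032 by experiment, with single pairs of groups from -0.381 to 0.773 in the HIRA and from -0.302 to 0.435 in the H3.3 experiment). A fit with the replicate block called 122 members lower between the stages in mislocalized dPCIF1 mutant embryos, against 123 without it, and gave the same counts elsewhere. A crossed replicate block, added after seeing the data for pairs correlated under -0.1, called 119, 78 and 8 members lower against the wild type at 1 to 1.5 h in mislocalized dPCIF1, overexpressed HIRA and S111A,S115A embryos, as without it, and 16 between the stages in S111A,S115A embryos.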
